A study of Sus scrofa with 18 samples.

Results

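The genes described here mark Schwann cells, the glia of peripheral nerves, and melanocytes, the pigment cells that share a neural crest origin with them. The set is defined by a list of gene symbols and has 8 members among the 27339 genes of the count table: S100B, SOX10, PMEL, MLANA, TYRP1, DCT, KIT and MITF. All 8 were present. They were followed in 18 messenger RNA libraries from pig tissue, 3 in each of 6 groups. The DIK groups are fresh tumour tissue labelled nose, mouth or scrotum from a double knock-in pig, whose line, by the study's title, combines parts of the Tet-on and phiC31 systems for switching genes. The WT groups are fresh normal tissue with the same 3 labels from wild-type pigs of matched age. Animals of both genotypes were given Dox, the inducer of the Tet-on system, at 7 months, and were killed 8 months after induction. Of 3 treated DIK founders 1 developed tumours, and all 9 DIK libraries come from that animal. The sources used here do not give the number of WT animals, the breed, or the promoter or cell type that drives the induced genes. Since no label ties libraries to separate animals, p-values reflect how far these samples scatter, possibly for technical reasons alone, and DIK cannot be told apart from this 1 animal.

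Melanocytes and Schwann cells both depend on the transcription factor SOX10, which in pigment cells switches on MITF. MITF in turn drives the genes of the melanosome, the organelle that makes and stores pigment. PMEL forms the fibrils on which melanin is laid down, TYRP1 and DCT are enzymes of melanin synthesis, and MLANA takes part in melanosome maturation. KIT is the receptor for the ligand encoded by KITLG and is needed for the migration and survival of melanocytes. In domestic pigs, structural variants at KIT underlie the dominant white coat. KIT is also made by mast cells and by some gland cells, S100B by cartilage and fat cells, SOX10 by gland cells, and MITF at a lower level by many cell types.

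Libraries held from 418665 counts (WT nose replicate 1) to 5041470 counts (WT nose replicate 3). A floor of 3 counts equals 0.483 to 5.76 CPM (counts relative to the library's TMM-scaled size), so a low value weighs least in WT nose replicate 1. Genes of the posterior HOX list, active in the hind body, went against 2 of the labels. Their summed level was 18.5 to 34.6 CPM in WT libraries labelled mouth and 0 to 1.22 CPM in those labelled scrotum, with 3.89 to 8 CPM and 0 to 1.12 CPM in DIK. The labels are kept as given, and site names below rest on them. WT scrotum replicate 2 also stood apart, with 13820 CPM for the summed squamous epithelium list against 1023 and 56.7 CPM in replicates 1 and 3. In the tumours that list summed to between 37100 and 80100 CPM.

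In the tumours S100B and MITF were lower than in WT tissue at every label, while PMEL and TYRP1 were higher at the nose and mouth labels and lower at the scrotum label. Of the 8 members, 5 had enough counts to be tested with edgeR's quasi-likelihood test (S100B, PMEL, TYRP1, KIT and MITF), and SOX10, MLANA and DCT did not. TYRP1 passed this filter through the groups where it was counted, since it was at 0 in the others. KIT passed it through WT nose, the only group in which a library held more than 9 counts of KIT. With only the scrotum-labelled libraries in the fit, PMEL and TYRP1 did not pass, and with only the nose-labelled ones TYRP1 did not. At the nose label PMEL and TYRP1 were called higher and S100B, KIT and MITF lower in DIK, beside a background of 42.1% of all 12895 tested genes called (21.9% higher, 20.1% lower). In the libraries labelled mouth PMEL and TYRP1 were again called higher and S100B and MITF lower, against 46.9% of all genes (22.7% higher, 24.3% lower). Where the label was scrotum, S100B, PMEL, TYRP1 and MITF were all called lower, against 43.5% of all genes (19.4% higher, 24% lower). The median log2 difference of the tested members was -2.02 at the nose label, -0.44 at the mouth label and -5.09 at the scrotum label, the last -3.27 with TYRP1 at its bound. Over all genes the medians were 0.03, -0.04 and -0.09. With so large a share of all genes called, these counts say nothing particular to the set. In bulk tissue, fewer cells of a type and less RNA per cell cannot be told apart.

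**Figure D1:**
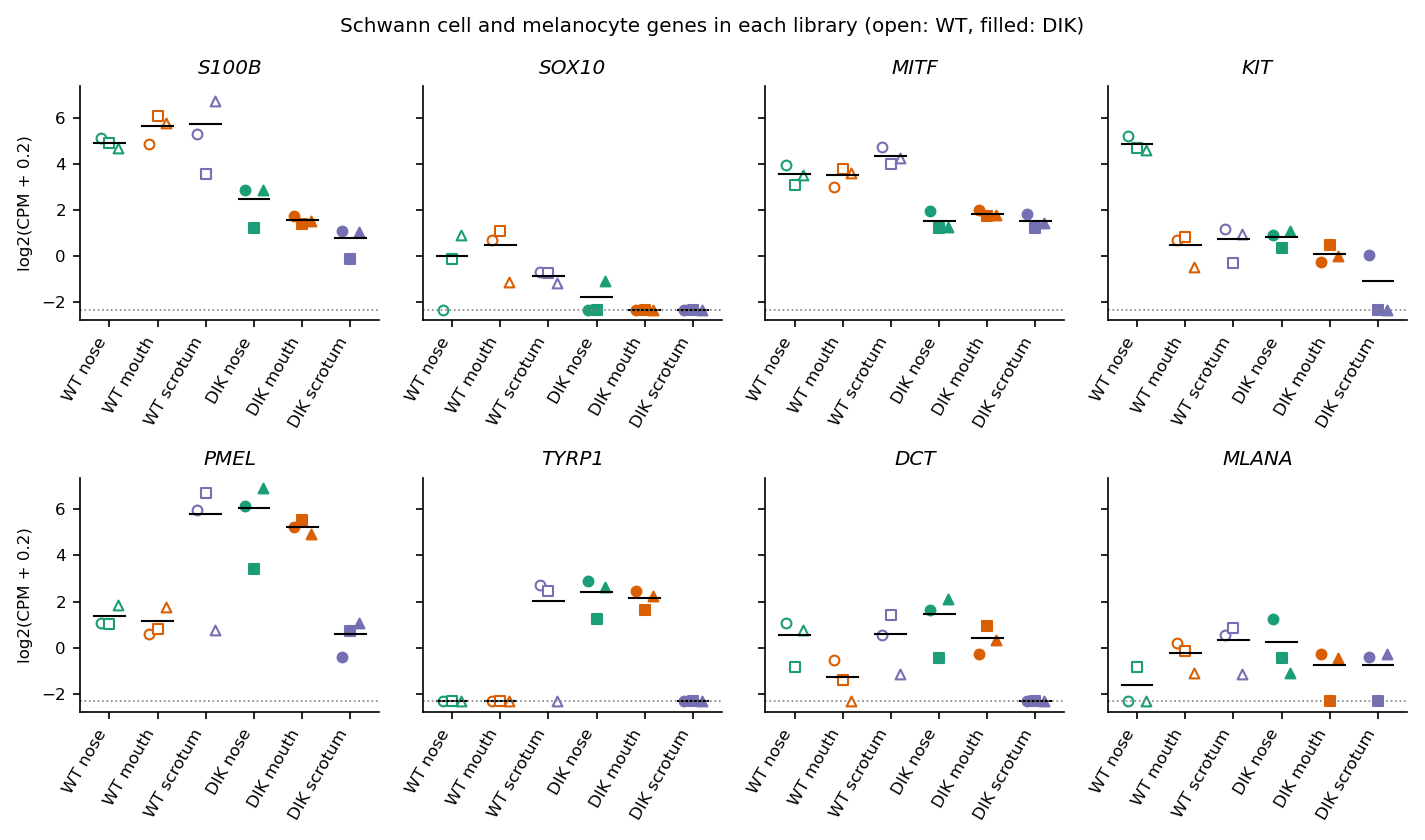
Level of each of the 8 genes in each library, as log2(CPM + 0.2) on the vertical axis, by group. Circles, squares and triangles are replicates 1, 2 and 3, open for WT and filled for DIK, the bar is the log2 of the mean CPM of 3 libraries plus 0.2, and the dotted line is 0 CPM. PMEL and TYRP1 are high in DIK nose, DIK mouth and 2 of the 3 WT scrotum libraries, and S100B and MITF are lower in every DIK group than in the WT group of the same label.

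**Figure D2:**
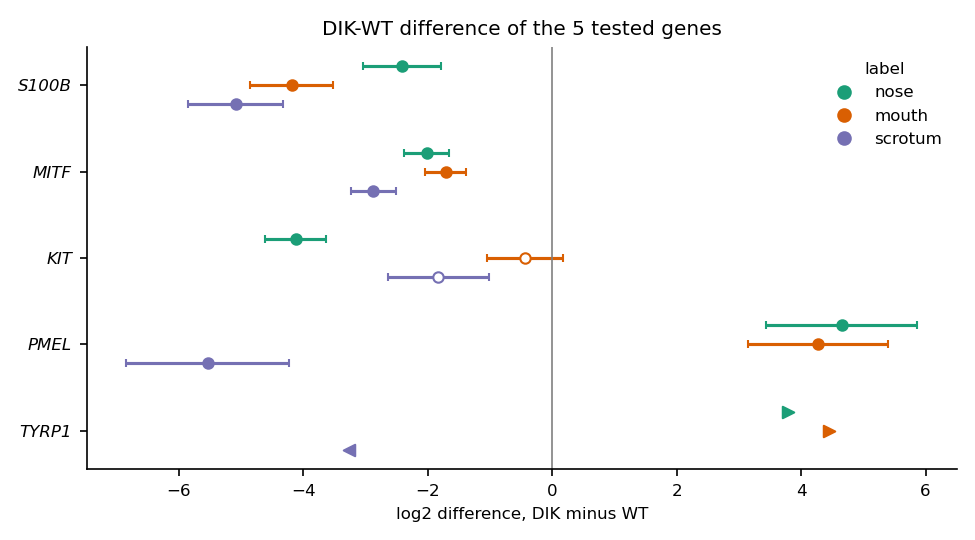
Log2 difference, DIK minus WT, of the 5 tested genes at each label, with the SE as bars. Filled points had an edgeR adjusted p under 0.05. For TYRP1, which had 0 counts in 1 group of each pair, triangles give the bound against 3 counts and point away from 0. S100B and MITF lie left of 0 at all 3 labels, while PMEL and TYRP1 change side at the scrotum label.

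S100B, a calcium-binding protein of Schwann cells, was lower in the tumours at every label. At the nose label it measured 34.6, 29.6 and 25.6 CPM in the WT libraries and 7.04, 2.15 and 7.10 CPM in the DIK libraries. The groups did not overlap, and the log2 difference was -2.42 ± 0.63 (SE, edgeR adjusted p = 0.00608). Under the mouth label the WT libraries held 28.7, 68.0 and 54.8 CPM and the DIK libraries 3.16, 2.43 and 2.67 CPM. This was a difference of -4.19 ± 0.67 (edgeR adjusted p = 0.000128), again with no overlap. Under the scrotum label the values were 39.4, 11.6 and 106 CPM in WT and 1.96, 0.715 and 1.88 CPM in DIK. WT scrotum replicate 2 was the lowest WT library and still above all DIK libraries, and the difference was -5.09 ± 0.76 (edgeR adjusted p = 6.3e-05).

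The group means of S100B ran from 52.3 ± 48.4 CPM (SD, n = 3) in WT scrotum through 50.5 ± 20.0 in WT mouth and 29.9 ± 4.46 in WT nose. They were 5.43 ± 2.84 CPM in DIK nose, 2.75 ± 0.375 in DIK mouth and 1.52 ± 0.694 in DIK scrotum. No pair of WT labels or of DIK labels was called for S100B, although the DIK scrotum libraries all lay below those of DIK nose and DIK mouth. Between the scrotum and nose labels the DIK-WT difference itself differed by -2.67 ± 1.0 (95% interval -4.62 to -0.72), with an edgeR adjusted p of 0.111. That interaction was called without WT scrotum replicate 2, at -3.17 (edgeR adjusted p = 0.00961).

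SOX10, the transcription factor shared by both lineages, was near the floor in all libraries, with 36 counts in total. It had 0, 2 and 8 counts in WT nose, 9, 11 and 1 in WT mouth and 1, 2 and 1 in WT scrotum. In DIK it had 1 count in nose replicate 3 and 0 in the other 8 libraries. Against 3 counts over the group, SOX10 was at least 4.9-fold lower in DIK than in WT at the mouth label (95% counting interval from 3.64). At the nose label the pooled ratio of WT to DIK was 14.5 (95% counting interval 2.06 to 628). In a fit without the filter on low counts, the mouth difference was called (edgeR adjusted p = 0.00734), and the nose difference (adjusted p = 0.0647) and scrotum difference (adjusted p = 0.198) were not.

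Other Schwann cell genes were compared with S100B. Of 25 on the list, 13 were tested. At the nose label 5 were called lower, 2 higher and 6 not, at the mouth label 7 lower, 4 higher and 2 not, and at the scrotum label 7 lower, 1 higher and 5 not. Their medians were -1.14, -2.73 and -2.44 on the log2 scale, beside 0.03, -0.04 and -0.09 over all genes, of which 20.1%, 24.3% and 24% were called lower. Smooth muscle genes were lower alongside them: of 10 tested, 8, 10 and 8 were called lower at the nose, mouth and scrotum labels, with medians of -3.58, -7.43 and -3.73 (-3.58, -6.97 and -2.73 with genes at 0 at their bound). The summed neuron list (12 of 12 genes in the table) was 22.5 to 34.2 CPM in WT mouth and at most 5.3 CPM in any other library. The part of smooth muscle and neurons in these differences was not tested.

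NCAM1, a neural adhesion molecule, had 160 counts in WT nose and 5 in DIK nose, and 0 in every DIK mouth and scrotum library. It was at least 81.9-fold and 42.2-fold lower at those labels, and differed by -5.36 ± 0.69 at the nose label (edgeR adjusted p = 3.32e-05). LGI4, a protein that Schwann cells secrete for myelination, differed by -3.80 ± 0.67 at the nose label and -5.10 ± 0.71 at the mouth label (edgeR adjusted p = 0.000261 and 2.43e-05). Under the scrotum label LGI4 had 303 counts in WT and 2 in DIK, a ratio of 107 (95% counting interval 29.4 to 889). PMP22, a myelin protein that fibroblasts also make, differed by -2.82 ± 0.52, -3.32 ± 0.52 and -4.17 ± 0.55 at the nose, mouth and scrotum labels (edgeR adjusted p = 0.000406, 7.46e-05 and 1.36e-05). GFAP, an intermediate filament of non-myelinating Schwann cells and enteric glia, was high in WT mouth at 18.7, 47.4 and 36.5 CPM and had 1 count in DIK mouth, a ratio of 369 (95% counting interval 65.9 to 14600). All other libraries held at most 3.84 CPM of GFAP, so that GFAP and the neuron list were both highest in WT mouth.

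MAL and ERBB3 went the other way, as did EGR2 and POU3F1 of the same list at the mouth label. EGR2 was at 1.05 to 1.39 CPM in WT mouth and 3.20 to 6.80 CPM in DIK mouth. POU3F1 was at 0 to 0.262 CPM in WT mouth and 3.89 to 6.66 CPM in DIK mouth. At the nose label EGR2 was at 0 to 2.56 CPM in WT and 2.67 to 3.00 CPM in DIK. POU3F1 was at 0 in WT nose and 0.273 to 1.89 CPM in DIK nose. Neither gene overlapped there, but only MAL and ERBB3 of the list were called higher at that label. EGR2 and POU3F1 both overlapped between WT and DIK at the scrotum label. MAL, a membrane protein of myelin that squamous epithelium also makes, averaged 2.72 ± 0.967 CPM in WT nose and 173.5 ± 133.9 CPM in DIK nose (log2 difference 6.18 ± 0.71, edgeR adjusted p = 4.14e-06). It was higher at the mouth label by 3.13 ± 0.58 and at the scrotum label by 7.18 ± 0.69 (edgeR adjusted p = 0.000353 and 4.68e-07). ERBB3, a neuregulin receptor of Schwann cells and epithelia that was named after its values were seen, differed by 2.61 ± 0.64 at the nose label and 2.35 ± 0.61 at the mouth label (edgeR adjusted p = 0.00404 and 0.0048). At the scrotum label it differed by 1.47 ± 0.59 (edgeR adjusted p = 0.0555). NRG1, which encodes neuregulin 1, was called higher at all 3 labels, by 3.21 ± 0.84, 4.55 ± 0.76 and 5.78 ± 0.89 (edgeR adjusted p = 0.00647, 0.000209 and 9.73e-05). The summed squamous epithelium list moved with MAL, ERBB3 and NRG1, at 475 to 1220 CPM in WT nose and 37100 to 45400 CPM in DIK nose, and its part in these differences was not tested.

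**Figure D3:**
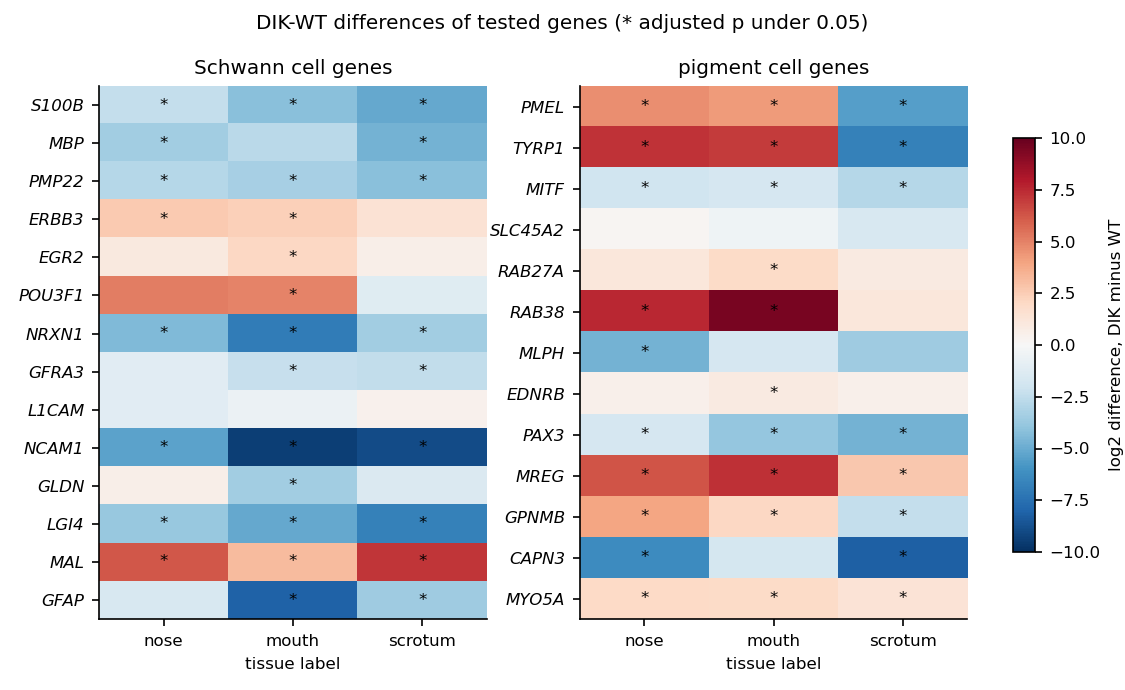
Fitted log2 difference, DIK minus WT, of the tested Schwann cell genes with S100B and of the tested pigment cell genes with PMEL, TYRP1 and MITF, by tissue label. Colours run from -10 to 10, stars mark an edgeR adjusted p under 0.05, and a gene at 0 in a group has a fitted value that is no bound. NCAM1 and LGI4 are lower at all 3 labels, MAL is higher at all 3, and PMEL, TYRP1 and GPNMB change sign at the scrotum label.

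Fat and cartilage cells also make S100B. The summed adipocyte list (10 of 10 genes in the table) ran from 106 to 264 CPM in WT nose, 182 to 414 in WT mouth and 221 to 969 in WT scrotum, and from 32.9 to 92 CPM over the DIK libraries. Of 8 tested adipocyte genes, 5, 3 and 6 were called lower at the nose, mouth and scrotum labels, and 1 was called higher at each. PLIN1, which coats fat droplets, was at 0 in every DIK library. CIDEA went the other way, with means of 2.43, 17.0 and 13.6 CPM in WT nose, mouth and scrotum. In DIK its means were 59.1, 36.9 and 31.5 CPM. LPL made up most of the adipocyte sum in each WT group, at means of 121.8, 190.2 and 401.7 CPM. The summed cartilage list (12 of 13 genes in the table) was 5.76 to 8.98 CPM in WT nose, 21.4 to 86.8 in WT mouth and 12.2 to 23.3 in WT scrotum, against 1.88 to 7.77 CPM in DIK. COL2A1, the defining cartilage collagen, was at 0 in WT mouth, WT scrotum and all DIK groups. The cartilage sums overlapped between WT nose and DIK nose, and those of fat did not overlap at any label. The part of fat cells in the S100B result was not tested. By mean absolute difference of log2 CPM, each gene centred on its own mean over 18 libraries, the genes closest to S100B among 11451 were ANK2 (0.35), FBLN5 (0.37) and ZBTB20 (0.39).

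MITF was lower in the tumours at every label. WT nose held 15.4, 8.40 and 11.3 CPM and DIK nose 3.64, 2.15 and 2.18 CPM. WT mouth held 7.89, 13.4 and 12.1 CPM and DIK mouth 3.80, 3.16 and 3.20 CPM. WT scrotum held 26.4, 15.9 and 18.8 CPM and DIK scrotum 3.35, 2.15 and 2.50 CPM. The groups did not overlap at any label. The log2 differences were -2.02 ± 0.36 (edgeR adjusted p = 0.000264), -1.71 ± 0.33 (0.000453) and -2.88 ± 0.36 (5.2e-06) at the nose, mouth and scrotum labels.

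Among the DIK groups MITF averaged 2.66 ± 0.850, 3.38 ± 0.358 and 2.67 ± 0.621 CPM (SD, n = 3), and no pair was called. Among WT groups the mean was highest in scrotum at 20.4 ± 5.44 CPM, then nose at 11.7 ± 3.49 and mouth at 11.1 ± 2.89. The nose and mouth groups differed by less than their spread. WT scrotum exceeded WT mouth by 0.86 ± 0.30 (edgeR adjusted p = 0.0429), and this call was lost under most alternatives, for example at 0.39 with library size as the only scaling. No interaction was called for MITF. EIF4E3 and MAP4 (0.24 each) and ANKRD33B (0.28) had the profiles closest to it on the same measure.

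The relatives of MITF did not all move with it. TFE3 was called higher at the nose label by 1.35 ± 0.38 (edgeR adjusted p = 0.00752). TFEB was called lower at the nose label by -1.76 ± 0.66 and at the mouth label by -2.33 ± 0.66 (edgeR adjusted p = 0.0383 and 0.00755). TFEC had too few counts to be tested. PAX3, a transcription factor that activates MITF in melanocytes and is also active in muscle precursors, was called lower at all 3 labels, by -1.70 ± 0.63 at the nose label (edgeR adjusted p = 0.0365). It had 28 counts in WT mouth and 49 in WT scrotum, against 1 in DIK at each of these labels. ZEB2, a neural crest factor, was called lower at the mouth label by -3.65 ± 0.43 and at the scrotum label by -2.21 ± 0.43 (edgeR adjusted p = 3.89e-06 and 0.000499). The summed skeletal muscle list also differed, with 103000 to 142000 CPM in WT nose, 1230 to 3710 in WT mouth and 120000 to 311000 in WT scrotum, and at most 937 CPM in any DIK library. Its part in the MITF and PAX3 differences was not tested.

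PMEL, the fibril protein of the melanosome, was high in the nose and mouth tumours and low in the scrotum-labelled ones. In DIK nose it measured 70.2, 10.5 and 120.7 CPM, and in WT nose 1.92, 1.83 and 3.42 CPM. DIK nose replicate 2 was the lowest of its group and still above all WT nose libraries. The log2 difference was 4.65 ± 1.22 (edgeR adjusted p = 0.00802). DIK mouth held 37.0, 45.7 and 30.1 CPM against 1.29, 1.57 and 3.15 CPM in WT mouth, a difference of 4.27 ± 1.13 (edgeR adjusted p = 0.00738). These groups did not overlap either.

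At the scrotum label the order was the reverse and the WT libraries disagreed. PMEL measured 62.1 and 103.5 CPM in WT scrotum replicates 1 and 2 but 1.51 CPM in replicate 3, and 0.559, 1.43 and 1.88 CPM in DIK scrotum. Replicate 3 lay within the DIK range, so the groups overlapped. The difference was -5.54 ± 1.31 (edgeR adjusted p = 0.00405), and it missed the threshold with limma-voom and quality weights at -3.47 (adjusted p = 0.0701). The DIK-WT difference at the scrotum label was lower than at the nose label, by a log2 interaction of -10.19 ± 1.80 (edgeR adjusted p = 0.00558, where 7.65% of all genes were called). Against the mouth label the interaction was -9.81 ± 1.74 (edgeR adjusted p = 0.00256, background 13.1%). These tests share the scrotum libraries.

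Within the tumours PMEL averaged 67.1 ± 55.2 CPM in nose, 37.6 ± 7.79 in mouth and 1.29 ± 0.670 in scrotum (SD, n = 3). The scrotum group was below the nose group by -5.81 ± 1.32 (edgeR adjusted p = 0.0209, background 5.84%). This call was lost when any 1 of DIK nose replicates 1 and 3 and DIK scrotum replicates 1, 2 and 3 was left out (adjusted p from 0.0589 to 0.115). Scrotum against mouth gave -4.97 ± 1.31 (edgeR adjusted p = 0.0625, background 2.88%), although the groups did not overlap. This difference was called under 5 of 15 alternatives: DESeq2 (adjusted p = 9.61e-05), only the groups compared (2.41e-09), limma-voom (0.0262), at least 10 CPM in 3 libraries (0.0399) and library size alone (0.0493). Nose and mouth tumours differed by -0.83 ± 0.92 (95% interval -2.64 to 0.97, background 1.54%) and were not called. Within WT tissue PMEL was higher in scrotum than mouth by 4.84 ± 1.15 (edgeR adjusted p = 0.00782, background 23%), with overlapping groups. That call was lost with limma-voom and quality weights at 2.74 (adjusted p = 0.148) and with only the groups compared at 4.8 (adjusted p = 0.107). The scrotum-nose difference in WT was 4.38 ± 1.22 (edgeR adjusted p = 0.0515, background 6.05%), and it was called at 4.96 without WT scrotum replicate 3 (adjusted p = 0.00122).

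In the RefSeq table of Sscrofa11.1, used only for names and neighbours, PMEL overlaps DGKA, a lipid kinase gene, and the strand setting of the counting is not given. DGKA was called higher in DIK at all 3 labels, by 1.5 ± 0.32, 2.13 ± 0.30 and 1.5 ± 0.30 (edgeR adjusted p = 0.00122, 2.13e-05 and 0.00051). It held 40.8, 42.9 and 34.4 CPM in DIK scrotum, where PMEL was lowest, and 8.39, 20.8 and 11.8 CPM in WT scrotum. Among the placed members, no other overlapped a gene of that table, and S100B is not placed on a chromosome there.

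TYRP1, an enzyme of melanin synthesis, was counted in 8 of the 18 libraries, while PMEL was counted in all 18. It had 30, 8 and 22 counts in DIK nose (7.28, 2.15 and 6.01 CPM), 17, 12 and 17 counts in DIK mouth (5.38, 2.92 and 4.53 CPM) and 15 and 26 counts in WT scrotum replicates 1 and 2 (6.29 and 5.30 CPM). All other libraries had 0, WT scrotum replicate 3 among them, so that the scrotum groups overlapped. Over a group, a count of 0 allows up to 0.378 CPM in WT nose, 0.19 in WT mouth and 0.376 in DIK scrotum. The tumours were thus at least 13.8-fold higher at the nose label (edgeR adjusted p = 0.0114) and at least 21.9-fold higher at the mouth label (edgeR adjusted p = 0.00408). At the scrotum label they were at least 9.66-fold lower (edgeR adjusted p = 0.0164). The nose call was lost without WT nose replicate 3 (adjusted p = 0.0623), and the scrotum call without DIK scrotum replicate 1 (adjusted p = 0.0544) or with limma-voom and quality weights (adjusted p = 0.101). Both interactions with the scrotum label were called (edgeR adjusted p = 0.0131 against nose and 0.00455 against mouth). WT scrotum exceeded WT mouth in TYRP1 at least 19.1-fold (edgeR adjusted p = 0.0108), a call lost with limma-voom and quality weights (adjusted p = 0.0674). DIK scrotum was at least 13.9-fold below DIK nose (edgeR adjusted p = 0.0474), a call lost when any of the same 5 libraries as for PMEL was left out (adjusted p from 0.0898 to 0.165). It was also lost without the filter on low counts (adjusted p = 0.0606) and with a replicate block (adjusted p = 0.0767).

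The 8 libraries with TYRP1 counts were those with the highest PMEL levels, from 10.5 to 121 CPM, and the other 10 held 0.559 to 3.42 CPM of PMEL. In these 8 libraries there were 4.88 to 20.1 PMEL counts per TYRP1 count. TYRP1 was also the gene closest to PMEL in profile among 11451, with a mean absolute difference of 0.69, followed by KRT77 (0.85) and PLBD1 (0.89). The genes closest to TYRP1 itself were GLT6D1 (0.6), WNT16 (0.61) and SLC36A2 (0.65).

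**Figure D4:**
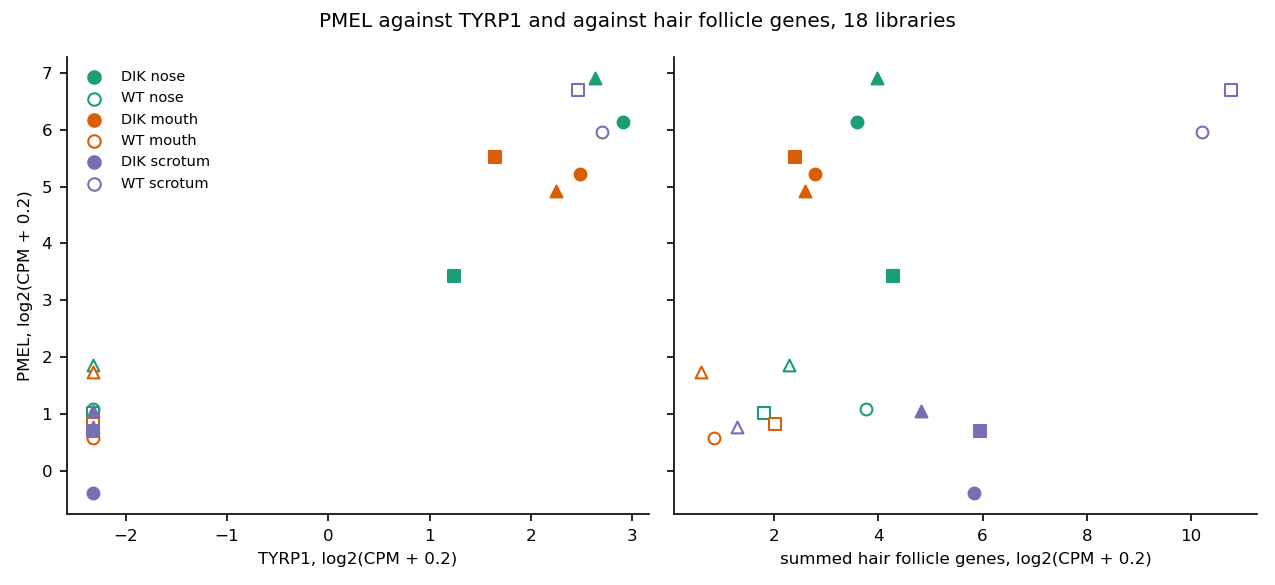
PMEL against TYRP1 (left) and against the summed hair follicle list (right) in 18 libraries, each as log2(CPM + 0.2). Open symbols are WT and filled symbols DIK, colours are tissue labels, and circles, squares and triangles are replicates 1, 2 and 3. On the left, 8 libraries with both genes stand apart from 10 with TYRP1 at 0. On the right, WT scrotum replicates 1 and 2 have both PMEL and hair follicle genes, while the nose and mouth tumours have PMEL with few hair follicle counts.

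Hair follicles are a main site of melanocytes in skin, and within WT scrotum the follicle genes moved with PMEL. The summed hair follicle list (8 of 10 genes in the table) was 1182 and 1727 CPM in WT scrotum replicates 1 and 2 and 2.26 CPM in replicate 3. In DIK it was 11.9 to 19.1 CPM in nose, 5.1 to 6.64 CPM in mouth and 28.1 to 61.5 CPM in scrotum. WT nose held 3.29 to 13.4 CPM and WT mouth 1.31 to 3.83 CPM. Most of the sum in DIK scrotum was PADI3, an enzyme that epidermis also makes, at 39.5 ± 16.5 CPM. The hair root keratins KRT25, KRT27 and KRT28 were at 0 there, and KRT28 was at 0 in all 3 DIK groups. In DIK nose KRT27 averaged 1.20 ± 0.809 CPM, and in DIK mouth 0.17 ± 0.148 CPM. The summed squamous epithelium list also had the order of PMEL in WT scrotum, at 1023, 13820 and 56.7 CPM in replicates 1, 2 and 3. The part of hair follicles or of epithelium in the PMEL differences was not tested.

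DCT, the enzyme next to TYRP1 in melanin synthesis, and MLANA were near the floor. DCT had 12, 2 and 15 counts in DIK nose and 2, 7 and 4 in DIK mouth, against 1, 1 and 7 in WT nose and 3, 1 and 0 in WT mouth. In DIK scrotum it had 0 in all libraries, against 3, 12 and 1 in WT scrotum. It was thus at least 3.77-fold lower at the scrotum label (95% counting interval from 2.73). That difference was called in a fit without the filter on low counts (edgeR adjusted p = 0.0164). The pooled ratio of DIK to WT was 2.23 (95% counting interval 1.03 to 5.34) at the nose label and 4.65 (1.44 to 19.6) at the mouth label, neither called without the filter (edgeR adjusted p = 0.424 and 0.129). MLANA had 43 counts in total. It was counted in every group, with 9, 2 and 1 counts in DIK nose, 2, 0 and 2 in DIK mouth, 2, 0 and 1 in DIK scrotum, 0, 1 and 0 in WT nose, 6, 4 and 1 in WT mouth and 3, 8 and 1 in WT scrotum. No DIK-WT difference of MLANA was called without the filter (edgeR adjusted p = 0.181, 0.608 and 0.426 at the nose, mouth and scrotum labels).

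Of 16 further pigment cell genes 10 were tested. At the nose label 4 were called higher, 3 lower and 3 not, at the mouth label 6 higher, 1 lower and 3 not, and at the scrotum label 2 higher, 3 lower and 5 not. Over all genes 42.1%, 46.9% and 43.5% were called. The medians of the list were 0.82, 1.37 and -0.56 on the log2 scale, beside 0.03, -0.04 and -0.09 over all genes. TYR, TRPM1, SLC45A2 and MC1R, genes of melanin synthesis and melanocyte signalling, had group means of at most 2.24 CPM. They did not all follow PMEL. EDNRB of the same list was not near 0, at 20.7 to 22.1 CPM in WT mouth and 36.9 to 41.9 CPM in DIK mouth. Its WT and DIK groups overlapped at the nose and scrotum labels. TYR, the first enzyme of melanin synthesis, had 4, 0 and 7 counts in DIK nose, 1, 0 and 0 in DIK mouth and 0 in DIK scrotum, against 0 in WT nose, 3 in WT mouth and 3 in WT scrotum over the group. TRPM1, a melanocyte channel, had 10, 0 and 12 counts in DIK nose, 8 in DIK mouth and 0 in DIK scrotum, against 2, 3 and 8 in WT nose, mouth and scrotum. In both, DIK nose replicate 2 was at 0, the replicate that was lowest for PMEL and TYRP1. SLC45A2, a melanosome transporter, averaged 1.39 ± 0.825 CPM in DIK nose and 1.88 ± 1.71 in WT nose, and 1.68 ± 0.866 in DIK mouth and 2.24 ± 0.39 in WT mouth. Its groups overlapped at both labels, and it was called at none of the 3 (edgeR adjusted p = 0.869, 0.564 and 0.0999). MC1R, the receptor for melanocyte-stimulating hormone, had 2 counts in DIK scrotum replicate 2 and 0 in all other libraries.

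GPNMB, a relative of PMEL that macrophages also make, followed the same order of labels. It averaged 10.4 ± 6.11 CPM in WT nose and 139.5 ± 82.2 in DIK nose, a difference of 3.97 ± 0.88 (edgeR adjusted p = 0.00255). In DIK nose its values were 205, 47.4 and 166 CPM, lowest in replicate 2. At the mouth label it differed by 2.05 ± 0.76 and at the scrotum label by -2.40 ± 0.79 (edgeR adjusted p = 0.0378 and 0.0235). WT scrotum held 17.2, 198 and 35.6 CPM of GPNMB, so that replicate 1, with high PMEL, was not high for it. DIK scrotum held 6.08 to 21.2 CPM, so that the scrotum groups overlapped. The interactions of the scrotum label with nose (-6.37 ± 1.18) and with mouth (-4.46 ± 1.09) were called (edgeR adjusted p = 0.0063 and 0.0153).

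Other genes of pigment granule transport, which are also active in epithelium and muscle, had other patterns. MLPH, also a gene of melanosome transport, was lower in DIK nose, at 0.269 to 3.28 CPM against 29.7 to 49.9 CPM in WT nose. Its groups overlapped at the mouth and scrotum labels. MREG, an organelle transport protein, was higher at all 3 labels, by 6.27 ± 0.91, 7.28 ± 0.84 and 2.73 ± 0.59 (edgeR adjusted p = 5e-05, 5.17e-06 and 0.00127), with 24.4 to 39.7 CPM in DIK scrotum. MYO5A, a motor protein, was higher at all 3 labels, by 1.96 ± 0.42, 1.88 ± 0.37 and 1.38 ± 0.38 (edgeR adjusted p = 0.00107, 0.000497 and 0.00686). RAB38, a GTPase of melanosome traffic, had 2 counts in WT mouth and 1332 in DIK mouth, a ratio of 952 (95% counting interval 263 to 7870), and RAB27A was higher there by 1.90 ± 0.40 (edgeR adjusted p = 0.000843). RAB38 reached 75.7 to 97.5 CPM in DIK scrotum, where PMEL was at 0.559 to 1.88 CPM, and was not called at that label (1.12 ± 1.07, edgeR adjusted p = 0.42). CAPN3, a protease of muscle and melanocytes, was lower at the nose label by -6.27 ± 0.72 (edgeR adjusted p = 3.3e-06). At the scrotum label CAPN3 had 444 counts in WT and 1 in DIK, a ratio of 314 (95% counting interval 56.1 to 12400).

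KIT was far higher in WT nose than in the 5 other groups. It measured 36.5, 25.9 and 23.9 CPM there, against 1.70, 1.08 and 1.91 CPM in DIK nose. The groups did not overlap, and the difference was -4.12 ± 0.49 (edgeR adjusted p = 4.56e-06). WT mouth held 1.45, 1.57 and 0.525 CPM and DIK mouth 0.633, 1.22 and 0.80 CPM, a difference of -0.44 ± 0.61 (95% interval -1.64 to 0.76, edgeR adjusted p = 0.578). WT scrotum had 5, 3 and 7 counts of KIT and DIK scrotum 3, 0 and 0. Their pooled ratio was 3.54 (95% counting interval 1 to 19.1), and the difference of -1.83 ± 0.81 was not called (edgeR adjusted p = 0.0756). It was called without WT scrotum replicate 2 at -2.26 (adjusted p = 0.0246), without DIK scrotum replicate 1 at -5.37 (0.0112), and with limma-voom and quality weights at -2.01 (0.0271).

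Among WT groups KIT averaged 28.8 ± 6.74 CPM in nose, 1.49 ± 0.779 in scrotum and 1.18 ± 0.571 in mouth (SD, n = 3). The nose group exceeded mouth and scrotum, with differences of -4.46 ± 0.49 (mouth minus nose, edgeR adjusted p = 2.78e-06, background 19.8%) and -4.29 ± 0.51 (scrotum minus nose, 2.68e-05). Scrotum and mouth did not differ beyond their spread (0.16 ± 0.58). In DIK the means were 1.56 ± 0.434 in nose, 0.882 ± 0.30 in mouth and 0.280 ± 0.484 in scrotum, and no pair was called. The DIK-WT difference was less negative at the mouth than at the nose label by 3.68 ± 0.83 (edgeR adjusted p = 0.0101, background 8.6%). Without DIK mouth replicate 2 this interaction was 3.38 and missed the threshold (adjusted p = 0.0653).

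KITLG, which encodes the ligand of KIT, was also highest in WT nose. WT nose held 48.0, 46.7 and 53.0 CPM of KITLG and DIK nose 8.74, 9.42 and 6.83 CPM, a difference of -2.56 ± 0.36 (edgeR adjusted p = 2.2e-05). At the mouth and scrotum labels it differed by -0.07 ± 0.35 and 0.17 ± 0.39 and was not called (edgeR adjusted p = 0.884 and 0.751). Its interaction of mouth with nose was 2.49 ± 0.50 and of scrotum with nose 2.73 ± 0.53 (edgeR adjusted p = 0.00402 and 0.00506). The genes closest to KIT in profile were ANGPTL5 (0.42), ST3GAL5 (0.51) and RNF152 (0.54).

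**Figure D5:**
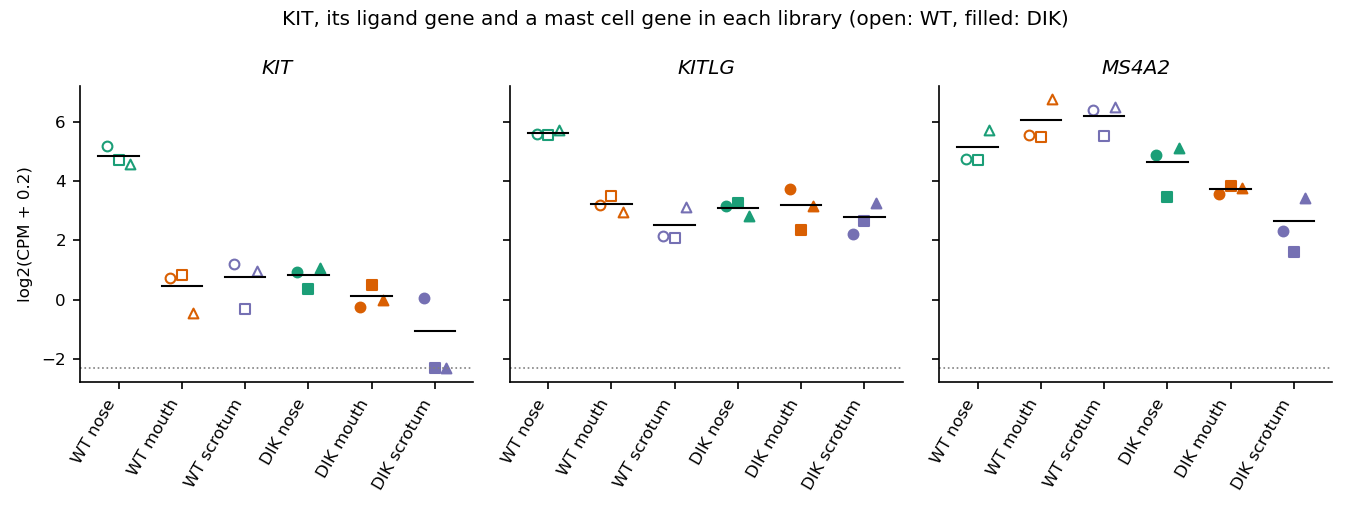
KIT, KITLG and the mast cell gene MS4A2 in each library, as log2(CPM + 0.2), by group. Circles, squares and triangles are replicates 1, 2 and 3, open for WT and filled for DIK, bars are the log2 of the group mean CPM plus 0.2, and the dotted line is 0 CPM. KIT and KITLG are highest in WT nose, where MS4A2 is at 25.9 to 52.4 CPM and not above the other WT groups.

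The mast cell list did not follow KIT. Its summed level (11 of 13 genes in the table) was 29.6 to 58.1 CPM in WT nose, 59.4 to 126 in WT mouth and 51.8 to 102 in WT scrotum. In DIK it was 14.3 to 42.9 CPM in nose, 16.8 to 20.6 in mouth and 6.08 to 15 in scrotum. CPA3, HDC, HPGDS and SLC18A2, which define mast cell granules and mediators, were at 0 in WT nose, but they were near 0 in every group, with group means of at most 0.68 CPM, and so do not set WT nose apart. MS4A2, a subunit of the IgE receptor, was not called at the nose label (-0.53 ± 0.47, edgeR adjusted p = 0.392). It was called lower at the mouth label by -2.34 ± 0.49 and at the scrotum label by -3.68 ± 0.54 (edgeR adjusted p = 0.000815 and 3.67e-05), where KIT was not called. GATA2 was likewise called lower at those labels, by -1.47 ± 0.50 and -1.48 ± 0.55 (edgeR adjusted p = 0.0206 and 0.0363).

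The summed gland list moved with KIT, though not every gene on it did. At the nose label 7 of its 9 tested genes were called lower and 0 higher, against 20.1% of all genes called lower. SAL1 made up most of the sum in WT nose, at a mean of 74610 CPM. LPO went the other way, at 0.264 CPM on average in WT nose and 9.01 CPM in DIK nose. The summed gland list (12 of 12 genes in the table) was 54800 to 95200 CPM in WT nose, with 115 to 8830 CPM in WT mouth, 58.9 to 184 CPM in WT scrotum and 53.2 to 288 CPM over the DIK libraries. SOX9, a transcription factor of glands and cartilage, was 106, 106 and 130 CPM in WT nose and lower in DIK nose by -2.30 ± 0.73 (edgeR adjusted p = 0.0202). WT mouth replicate 1, at 8831 CPM of gland genes, held 1.45 CPM of KIT, within the range of the other WT mouth libraries. BPIFB1, an airway gland protein, was at 0 in WT nose and all DIK groups. It had 1 count in WT mouth and 1 in WT scrotum, and so does not set WT nose apart. The part of gland cells in the KIT and KITLG differences was not tested. Germ cells, which also make KIT, were hardly represented: no library held more than 0.839 CPM for the summed germ cell list, and DAZL, MAEL, TNP1 and ACR were at 0 in all groups.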

How the data were processed

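The deposited matrix gives the authors' unnormalized read count for each gene in each library. Per the submitters' processing notes the tools were fastp, HISAT2 2.1.0 and HTSeq 0.11.2. No source used here states the build, annotation or strand setting, so coordinates are left out. Columns were matched to samples by name. Replicates of a group differed by more than sampling noise (chi-square per degree of freedom at least 5.96).

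After TMM scaling, edgeR 4.0.16 in R 4.3.3 (quasi-likelihood, robust) fitted 1 mean per group, with all 18 libraries sharing the spread. The default filter (minimum count 10, minimum total 15) left 12895 genes. Benjamini-Hochberg adjustment ran over all of these, and an adjusted p under 0.05 is a call. The SE is the size of the log2 difference over the root of its F statistic, and 95% intervals span 1.96 SE each way. Log CPM used a prior count of 2. Genes at 0 in a group are bounded against 3 counts over that group. Such a bound takes the higher group's count as exact, so the lower end of the counting interval is smaller. Counting intervals are exact and cover counting error only. The steps were tested on simulated data.

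The members and gene lists were chosen with earlier results of these data known. Named genes are the members, up to 4 per list and label by adjusted p, genes at 0, and, for members whose group means span at least 2 on the log2 scale, the 3 genes nearest in profile. Further genes were named after their values were seen. From the Schwann cell list 1 gene is left out and is not reported here. All 8 members matched the RefSeq table. Alternatives were other scalings, filters and thresholds, DESeq2 1.42.0, limma 3.58.1 (voom), only the groups compared, a replicate block and each library left out.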

Additional observations from a re-analysis of the deposited data

Results flagged for a closer look

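The DIK-WT difference of KIT differed between labels by 3.68 (mouth minus nose, log2), by the interaction test of edgeR (adjusted p = 0.0101). For PMEL the interactions were -10.19 (scrotum minus nose) and -9.81 (scrotum minus mouth), with edgeR adjusted p = 0.00558 and 0.00256. For TYRP1 the fitted interactions were -14.03 and -13.74 (edgeR adjusted p = 0.0131 and 0.00455). These last sizes depend on the default prior count of the fit, because TYRP1 had 0 counts in WT nose, WT mouth and DIK scrotum. That prior count is not the 2 used for log CPM. The PMEL and TYRP1 interactions rest on the same scrotum libraries, in which WT replicate 3 had 1.51 CPM of PMEL and 0 counts of TYRP1.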

How the results depend on the processing

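Over 57 log2 differences of members and 928 settings, 845 kept direction and side of the threshold, 31 lost a call, 23 gained one and 29 changed sign. Every sign change was in a difference that was not called. The calls lost or gained in the DIK-WT comparisons stand beside their results. Genes called numbered 5426, 6054 and 5607 at the nose, mouth and scrotum labels, and 4156 to 5081, 5061 to 6162 and 4469 to 6568 with 1 library left out. At an adjusted p under 0.01 the nose count was 3617. Members called at the scrotum label fell from 4 to 2 when only the groups compared entered the fit. PMEL and TYRP1 had too few counts to be tested in that fit. At the nose label such a fit called 4 members in place of 5, and TYRP1 was not tested in it. With library size as the only scaling, the share of calls that were higher moved to 36.1% at the mouth and 37.5% at the scrotum label, and the median of all genes to -0.29 and -0.21. The cause of these shifts was not tested. When replicate 1 of WT nose and replicate 2 of WT scrotum were both dropped, a choice made after seeing the data, 5, 4 and 5 members were called at the nose, mouth and scrotum labels, the fifth at the scrotum label being KIT. With voom the S100B interactions with the nose label were called, at -2.11 for mouth and -2.78 for scrotum (adjusted p = 0.0271 and 0.0277). Voom also called S100B in WT mouth minus nose (1.03, adjusted p = 0.0378), MITF in WT scrotum minus nose (1.03, 0.0295) and KIT in DIK scrotum minus nose (-1.97, 0.0333).

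Scaling and tool turned small differences. For S100B, WT scrotum minus mouth was -0.01 with upper-quartile scaling, -0.47 with library size, -0.14 with voom and -0.03 with only the groups compared. For KIT it was -0.32 with library size. For MITF, WT mouth minus nose was 0 with median-of-ratios scaling and -0.03 with only the groups compared. DIK scrotum minus nose was -0.02, -0.19 and -0.01 for MITF with upper-quartile scaling, library size and voom, and its interaction of mouth with nose was -0.02 with voom.

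Leaving out 1 library gave these ranges where the sign turned. Interactions: PMEL mouth minus nose -0.89 to 0.35, KIT scrotum minus nose -1.26 to 2.85, S100B scrotum minus mouth -1.4 to 0.16. WT mouth minus nose: PMEL -0.88 to 0.05, MITF -0.19 to 0.24. WT scrotum minus nose: S100B -0.23 to 1.33. WT scrotum minus mouth: S100B -1.01 to 0.55, KIT -0.12 to 0.61. DIK scrotum minus nose: MITF -0.23 to 0.32. The negative KIT interaction arose without DIK scrotum replicate 1, the only DIK scrotum library with KIT counts. The cause of the others was not tested.

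Of 45 same-number pairs across groups 7 had a correlation over 0.1, with a median of 0.023. Pairs with different numbers were not set beside them, so these values cannot decide whether the replicate numbers pair the samples. With the replicate block 5374, 6037 and 5561 genes were called at the nose, mouth and scrotum labels, and S100B in WT scrotum minus mouth was -0.23. The block lost 2 calls of members: TYRP1 in DIK scrotum minus nose (adjusted p = 0.0767) and MITF in WT scrotum minus mouth (adjusted p = 0.0581).

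The precision for SOX10, MLANA and DCT is limited by 36, 43 and 71 counts in all.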
